A study of Mus musculus with 7 samples.

Results

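The genes described here encode the complexes that methylate lysine 4 of histone H3 (H3K4), known as COMPASS and COMPASS-like complexes. They are the 10 mouse genes Kmt2a, Kmt2b, Kmt2c, Kmt2d, Setd1a, Setd1b, Wdr5, Rbbp5, Ash2l and Dpy30, out of 21887 protein-coding genes with a chromosomal position. The genes were chosen by name, and for each of them every chromatin immunoprecipitation sequencing (ChIP-seq) peak of β-catenin or Pygo2 was listed whose centre lay inside the gene or within 50 kb of it on mm10. The tissue was wild-type branchial arches from mouse embryos 10.5 days after conception (dpc), with about 200 dissected arches pooled and cross-linked with EGS and formaldehyde. The 7 libraries are input BA1 and BA2, IgG BA1 (whose source is labelled pre-immune serum), b-cat BA1 and BA2, and Pygo2 BA1 and BA2. The labels give no strain or sex and leave the meaning of BA1 and BA2 unstated. The results rest on a list of 1079 peaks from the b-cat BA2 library and a list of 7150 peaks from the Pygo2 BA2 library, with IgG BA1 as the control of both, per the file headers. The names of the deposited lists mention IgG together with BA2 instead, and the headers were followed. Peak lists of the BA1 libraries were not analysed here. With 1 library per peak list no value has a replicate error, and no test was run.

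The Kmt2 and Setd1 enzymes that methylate H3K4 are large proteins that carry a SET domain and work as parts of complexes. Kmt2a and Kmt2b (MLL1 and MLL2) work with menin, Kmt2c and Kmt2d (MLL3 and MLL4) place monomethylation at enhancers, and Setd1a and Setd1b supply most of the trimethylation at active promoters. Wdr5, Rbbp5, Ash2l and Dpy30 form the core module that every one of these enzymes needs. Pygo2 belongs to the Wnt signalling machinery: its PHD finger binds methylated H3K4, and the adaptor Bcl9 links it to β-catenin, the nuclear effector of the pathway. KMT2D mutations cause Kabuki syndrome, which affects the face and the heart.

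The libraries held 13672937 tags for β-catenin and 15009636 tags for Pygo2. The caller required 11 tags for a β-catenin peak and 10 for a Pygo2 peak, and the mean was 14.6 and 15.5 tags per peak, so a gene with no listed peak may still hold fewer tags than that. Within a list every peak has the same width (169 bp in the β-catenin list, 167 bp in the Pygo2 list) and the same score of 1, so the lists carry no peak strength. Position in the deposited list is given for each peak as a description, since the headers do not state the order. A peak list holds no expression values, so the labelled tissue could be looked at only through positions. Of 6 arch mesenchyme and neural crest genes 4 had a Pygo2 peak within 50 kb, as did 0 of 4 hepatocyte genes and 1 of 2 muscle genes, against 46.5% of all protein-coding genes. A β-catenin peak lay near 1, 0 and 0 of them, against 11.2%. So few genes do not check the tissue.

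Pygo2 peaks lay near 8 of the 10 genes and a β-catenin peak near 1. The window held 24 Pygo2 peaks, none of them counted for more than 1 of the genes. Setd1a had 6, Kmt2d 5, Kmt2b 4, and Setd1b, Wdr5, Rbbp5 and Ash2l 2 each. Kmt2a had 1, and Kmt2c and Dpy30 had 0. Over all protein-coding genes, 46.5% had a Pygo2 peak in this window, the background to the 8 of 10. At shorter range, 6 of the 10 genes had a Pygo2 peak inside them or within 1 kb, against 22.9% of all genes, and 3 had one inside, against 15.0%. The count was 7 within 5 kb and within 10 kb (26.4% and 30.0% of all genes), and 8 within 25 kb and within 100 kb (37.8% and 57.6%). The median distance from the gene to its nearest Pygo2 peak was 0.477 kb for the 10 genes and 62.4 kb for all genes. At least 4 Pygo2 peaks were found near 3 of the 10, against 6.98% of all genes. The only β-catenin peak belonged to Kmt2d, and 1 of 10 stands beside 11.2% of all genes with a β-catenin peak in the window. The count was 0 inside the genes, within 1 kb and within 5 kb (2.47%, 3.61% and 4.54% of all genes), and 1 within 10, 25 and 100 kb (5.46%, 7.84% and 17.2%). Neither protein had a peak in the window of Kmt2c and Dpy30, 2 of 10, against 51.5% of all genes. A share near its background, as for β-catenin, is not a result about these genes. The background of all protein-coding genes is not matched for gene density or base composition. A share above it, as for Pygo2, is not particular to these genes. The other gene lists looked up below also had shares above 46.5% for a Pygo2 peak within 50 kb.

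**Figure D1:**
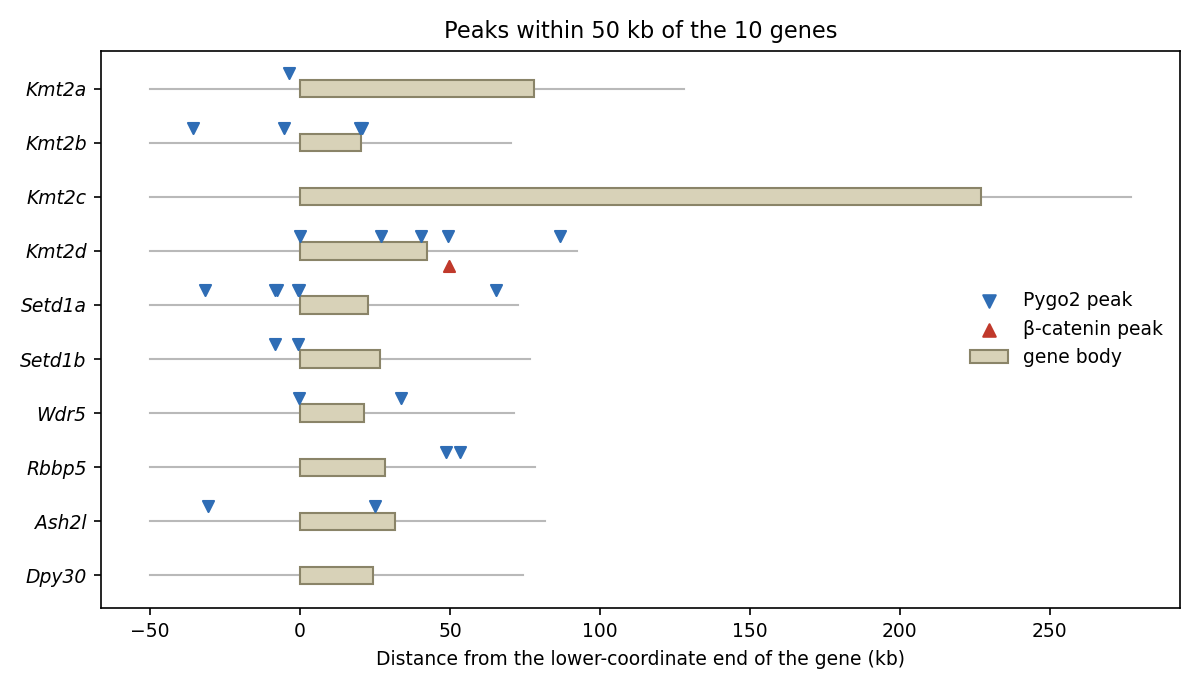
Each row is a gene drawn to scale from its lower-coordinate end (x axis in kb), with a grey line for the window of 50 kb on both sides. Blue triangles are the centres of the 24 Pygo2 peaks and the red triangle is the 1 β-catenin peak, beside Kmt2d; Kmt2c and Dpy30 have no triangle.

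**Figure D2:**
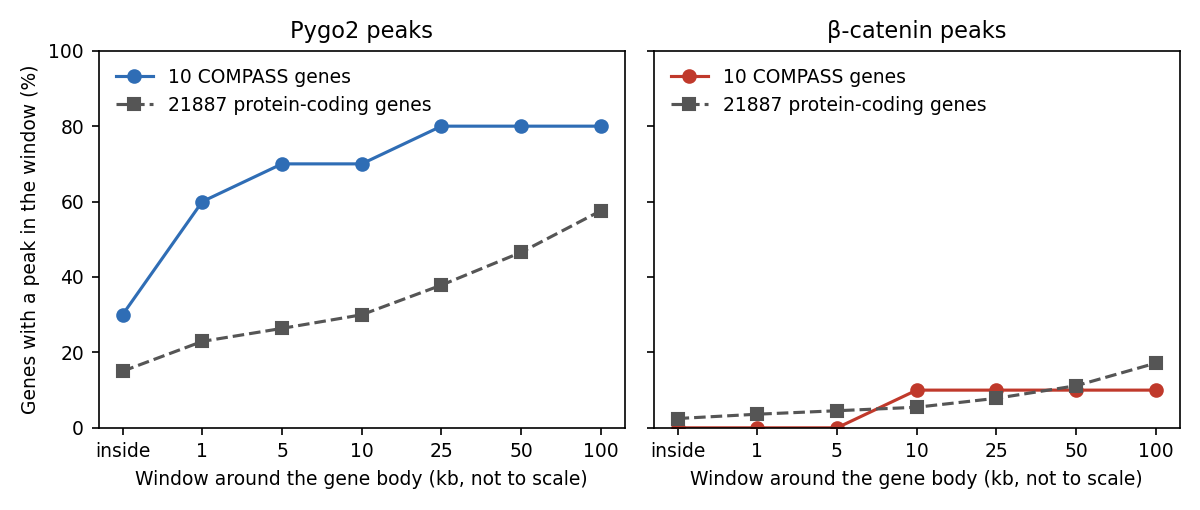
The y axis is the percentage of genes with a peak inside the window given on the x axis, for the 10 COMPASS genes (solid line) and for all protein-coding genes (dashed line). For Pygo2 the solid line runs above the dashed line at every window, and for β-catenin it stays between 0 and 1 gene of 10, close to the dashed line.

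Gene-dense neighbourhoods moved with these counts. The number of other protein-coding genes within 50 kb was 11 for Kmt2b, 6 for Kmt2a and for Kmt2d, and 5 for Setd1a. It was 4 for Ash2l, 3 for Setd1b and for Rbbp5, 2 for Kmt2c and for Dpy30, and 1 for Wdr5. All 4 genes with at least 5 neighbours had a Pygo2 peak, and so did 69.8% of all genes with that many. Of the 6 genes with fewer neighbours 4 had one, against 39.8% of all such genes. These 2 classes are a description, and the part of gene density in the counts was not tested.

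Setd1a carried the most Pygo2 peaks, and a pair of them lay just upstream of its start. The gene (chromosome 7, 127777389 to 127800122, plus strand) had peaks at 127777051 to 127777217 and at 127776558 to 127776724, with centres 255 bp and 748 bp before the start site of the RefSeq promoter table. These stood at positions 628 and 734 of the 7150 in the list, and Setd1a was the nearest protein-coding gene to both. The other 4 peaks lay nearer to neighbours. One at 127769630 to 127769796 was 102 bp before the start of Orai3, a calcium channel gene, and one at 127768961 to 127769127 lay inside Fbxl19, which encodes a CpG-binding F-box protein. Another was 734 bp before a start of Fbxl19 and 31.8 kb from Setd1a, and was listed first of the 6 (position 179). The last lay inside the syntaxin gene Stx4a, 42.5 kb away. The nearest β-catenin peak was 167 kb from Setd1a.

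The sequence before the starts of Setd1a and Wdr5 is shown because, of the 7 members in the promoter table, these are the ones whose RefSeq promoter window (250 bases before to 50 after the start, GRCm38.p6) overlapped a Pygo2 peak. It covers chr7:127777139-127777388 on the plus strand for Setd1a and chr2:27514897-27515146 on the plus strand for Wdr5, in each case the 250 bases before the start. Capitals mark the bases inside the Pygo2 peak, 79 for Setd1a and 89 for Wdr5.
Setd1a: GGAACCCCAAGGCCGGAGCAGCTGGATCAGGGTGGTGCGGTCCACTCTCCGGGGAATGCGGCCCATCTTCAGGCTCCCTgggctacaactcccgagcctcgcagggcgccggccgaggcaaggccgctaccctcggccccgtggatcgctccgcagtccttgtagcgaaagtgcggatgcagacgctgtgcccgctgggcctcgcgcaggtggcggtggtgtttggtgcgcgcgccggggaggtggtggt
Wdr5: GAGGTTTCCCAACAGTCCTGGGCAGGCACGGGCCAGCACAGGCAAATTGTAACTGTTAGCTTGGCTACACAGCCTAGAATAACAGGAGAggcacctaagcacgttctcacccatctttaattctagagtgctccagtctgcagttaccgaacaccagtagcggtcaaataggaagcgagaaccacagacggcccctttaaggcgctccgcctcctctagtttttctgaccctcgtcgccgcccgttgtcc

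The peak thus covers the far side of each stretch and stops more than 100 bases short of the start. Across the whole Pygo2 list, 3159 peaks had a start of the promoter table within 1 kb. Of these 58.2% were centred upstream, with a median of 36 bp before the start and quartiles from 168 bp before to 94 bp after it. The centres at Setd1a (255 bp) and Wdr5 (245 bp) lie outside these quartiles, on the upstream side.

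Setd1b, the paralog of Setd1a, had the earliest listed peak of all 24. It spanned 123141258 to 123141424 on chromosome 5, at position 21 of 7150, 0.699 kb from the gene (123142040 to 123168630). The same peak lay inside Rhof (minus strand), 467 bp from its 5′ end, so it sits where these genes adjoin. The second peak, at 123133523 to 123133689, was 8.43 kb from Setd1b and also inside Rhof, 977 bp before a start site of that gene. The nearest β-catenin peak was 720 kb away.

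Kmt2d was the only one of the 10 genes with peaks of both proteins in its window. Of its 5 Pygo2 peaks, a pair lay inside the gene (chromosome 15, 98831669 to 98874077, minus strand). The one at 98872071 to 98872237 was centred 949 bp before the start site of the promoter table (position 1064), which lies inside the annotated gene body. The one at 98858554 to 98858720 was 12568 bp downstream of that start and late in the list (position 6522). Another, at 98831422 to 98831588, was 164 bp beyond the 3′ end of Kmt2d and 3 bp from the start of Prkag1, a subunit gene of the AMP-activated kinase. The next was 183 bp before the start of Lmbr1l and 44.2 kb from Kmt2d.

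The remaining Pygo2 peak near Kmt2d overlapped the β-catenin peak. The β-catenin peak spanned 98881131 to 98881299, 7.14 kb from Kmt2d (position 638 of 1079), and the Pygo2 peak 98880976 to 98881142, 6.98 kb from it (position 1452 of 7150). They shared 12 bp, with centres 156 bp apart, and no longer counted as overlapping when 50% of the shorter peak had to be shared. The centres lay 10010 bp (β-catenin) and 9854 bp (Pygo2) before the start of Kmt2d in the promoter table. Both lay inside Rhebl1, a Rheb-like GTPase gene, with the β-catenin centre 282 bp from a Rhebl1 end. The nearer boundary of Dhh, which encodes the Desert hedgehog ligand, lay 0.4 kb from that centre, and the strand of Dhh was not used. Rhebl1, and not Kmt2d, was therefore the nearest gene to the position of both proteins. Of all protein-coding genes 4.05% had such a shared β-catenin peak within 50 kb, against 1 of these 10. Over the whole lists the shared peaks number 273, which is 25.3% of the β-catenin list and 3.82% of the Pygo2 list, and 1 of the 24 Pygo2 peaks near the members was shared. Both lists share the IgG control, and its part in the overlap was not tested.

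**Figure D3:**
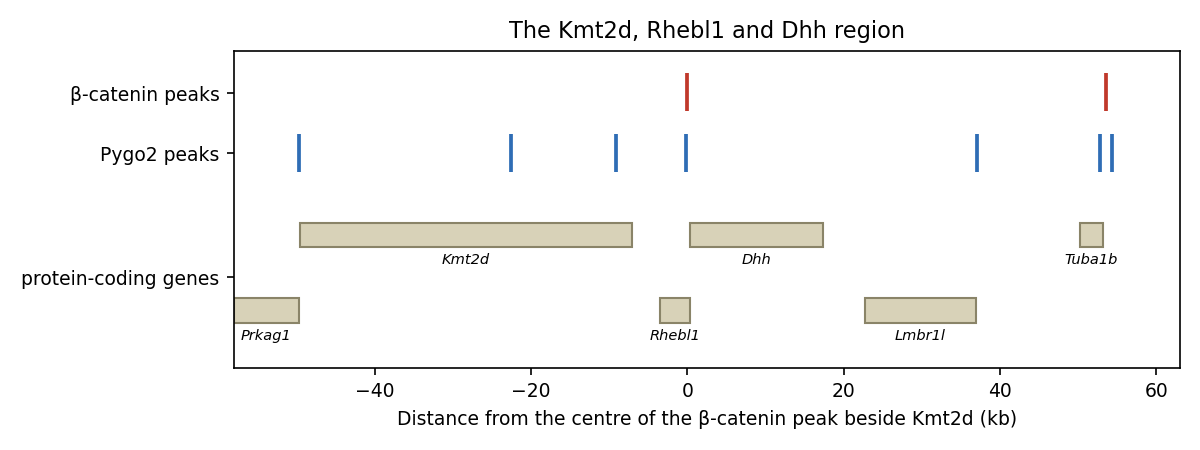
The x axis is the distance in kb from the centre of the β-catenin peak beside Kmt2d; boxes are protein-coding genes (in staggered rows), blue lines Pygo2 peaks and red lines β-catenin peaks. At 0 the peaks of both proteins fall in Rhebl1, next to Dhh. The nearer boundary of Kmt2d, on the side of its start, lies 7.14 kb to the left.

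A second β-catenin peak lay 60.7 kb from Kmt2d, outside the window and beyond Tuba1b, an α-tubulin gene. The start of Kmt2d is shown because its promoter window was the only one among the 7 members in the table with a match to the TCF/LEF motif, the DNA element read by the partners of β-catenin. The 250 bases before the start cover chr15:98871206-98871455 on the minus strand, and capitals mark the match, which is on the opposite strand.
Kmt2d: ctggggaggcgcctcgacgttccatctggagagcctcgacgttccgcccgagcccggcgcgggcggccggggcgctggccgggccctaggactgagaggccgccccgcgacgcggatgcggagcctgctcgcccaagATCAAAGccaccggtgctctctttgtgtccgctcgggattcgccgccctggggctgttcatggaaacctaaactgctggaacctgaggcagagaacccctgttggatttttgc

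The match begins 113 bases before the start. Windows with this motif (CTTTGAT, either strand) make up 3.73% of the 32817 distinct windows of the promoter table. No peak of either list overlapped this window: the nearest Pygo2 peak was 949 bp and the nearest β-catenin peak 10010 bp from the start. The match is a description of the letters and not a bound site.

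Kmt2c, the paralog of Kmt2d, had no peak. It is the longest of the 10 genes at 227 kb (chromosome 5, 25271795 to 25498855), so its window of 327 kb was also the largest. The nearest Pygo2 peak was 429 kb and the nearest β-catenin peak 878 kb away. Its start was the richest in G and C among the members, at 88.0% of the promoter window, with 56 CpG sites. It is shown as the contrast to Setd1a, for the 250 bases before the start on chr5:25498784-25499033, minus strand, with capitals for the 12 matches of the GC box GGGCGG on either strand, some of which overlap.
Kmt2c: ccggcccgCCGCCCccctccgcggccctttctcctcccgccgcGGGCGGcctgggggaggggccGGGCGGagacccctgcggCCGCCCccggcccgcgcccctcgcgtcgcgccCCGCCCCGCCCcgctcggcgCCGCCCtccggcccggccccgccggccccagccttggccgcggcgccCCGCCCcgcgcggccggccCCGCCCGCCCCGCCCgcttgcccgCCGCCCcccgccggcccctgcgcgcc

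The founding pair of MLL enzymes differed in their peaks. Kmt2b (chromosome 7, 30568855 to 30589056) had no window in the promoter table, so its strand was not used. It had a Pygo2 peak at 30588891 to 30589057, centred inside the gene 82 bp from its higher-coordinate boundary (position 1162). A second, at 30589519 to 30589685, was 0.546 kb outside that boundary (position 3739). The second was 78 bp from the 3′ end of Zbtb32, a zinc finger repressor gene, and both lay inside the long noncoding RNA gene Gm32082. Another peak, 5.54 kb from Kmt2b, was 29 bp from the start of U2af1l4. The same peak lay inside Psenen, a γ-secretase subunit gene, and was centred 107 bp before a start of Psenen. The last lay inside Arhgap33, 35.7 kb away. Kmt2a (chromosome 9, 44803355 to 44881352, minus strand) had 1 peak, at 44799491 to 44799657. It was 3.78 kb beyond the 3′ end of Kmt2a and 81715 bp from its start, inside Ttc36 and 327 bp before the start of Tmem25. No β-catenin peak lay within 255 kb of Kmt2a, and the nearest to Kmt2b was 2189 kb away, the largest distance of the 10.

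In the core module, Wdr5, the WD40 subunit that holds the complex together, had a Pygo2 peak just before its start. It spanned 27514819 to 27514985 on chromosome 2 (position 1945), 245 bp before the gene (27515147 to 27536535), and the nearest other gene, Brd3, was 7.25 kb away. A second peak at 27548742 to 27548908 was 12.3 kb beyond the other end of Wdr5 and late in the list (position 6704). Ash2l, whose product stimulates the methyltransferase activity, had a peak inside the gene (chromosome 8, 25840844 to 25841010, 6.77 kb from the nearer end of 25816000 to 25847694, position 2349). Its second peak lay 30.6 kb away, inside the mRNA decay gene Lsm1 and 112 bp from the nearer boundary of Lsm1. Rbbp5 (chromosome 1, 132477348 to 132505665) had no peak nearer than 20.4 kb. Its Pygo2 peaks at 132525955 to 132526121 and 132530698 to 132530864 both lay inside Cntn2, a neuronal adhesion gene. Dpy30 (chromosome 17, 74299474 to 74323944) had none, with the nearest Pygo2 peak 204 kb and the nearest β-catenin peak 964 kb away. The core subunits therefore did not share a pattern: a peak before the start, a peak inside, distant peaks and no peak.

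Most of the 24 Pygo2 peaks were nearer to another gene than to the member. The member was the nearest protein-coding gene for 8 peaks and another gene for 16. When a peak counted only for the gene nearest to it, 5 of the 10 genes (Kmt2b, Kmt2d, Setd1a, Wdr5 and Ash2l) kept a Pygo2 peak, against 23.5% of all genes, and none kept a β-catenin peak, against 4.07%. Within 1 kb of some protein-coding gene end lay 14 of the 24, where the share over the whole Pygo2 list was 45.7%. Another Pygo2 peak within 1 kb was found for 6 of the 24, against 9.27% of the list. These formed 3 pairs. They lay at the start of Setd1a (493 bp apart), at Orai3 and Fbxl19 (669 bp) and at the higher-coordinate boundary of Kmt2b (628 bp). The caller allowed no peaks of 1 list closer than 332 bp. In the first 20% of the list stood 12 of the 24 peaks, and their median position was at 19.7% of the list. The order of the list is not stated, so position is not a measure of peak strength.

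Start sites were compared for the 7 members in the promoter table (Kmt2a, Kmt2c, Kmt2d, Setd1a, Wdr5, Rbbp5 and Dpy30). A Pygo2 peak was centred within 1 kb of the start of Setd1a, Wdr5 and Kmt2d, 3 of 7, against 17.3% of 17492 protein-coding genes of the table. None of the 7 had a β-catenin peak there, against 2.16%. The 17.3% is not matched for base composition, and the part of base composition in these counts was not tested. The windows with a peak nearby had a G and C content of 73.7% (Setd1a), 62.7% (Kmt2d) and 59.0% (Wdr5). Those without were 88.0% (Kmt2c), 75.7% (Kmt2a), 44.0% (Rbbp5) and from 40.7% to 72.0% over the 4 starts of Dpy30. Over the whole table, a Pygo2 peak within 1 kb was found for 2.63% of windows under 50% G and C, 12.3% from 50 to 60%, 26.2% from 60 to 70% and 23.7% at 70% or more.

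Of 10 motifs searched on both strands of these windows, none was found in all 7 members. The 7 members have 10 windows, since Dpy30 has 4 that partly overlap, and the shares in all windows are per window. The GC box GGGCGG was in 5 of the 10 windows (1 each of Kmt2a, Kmt2c, Kmt2d, Wdr5 and Dpy30), against 35.6% of all windows. The YY1 letters AAGATGG were in Setd1a, inside the peak and 188 bases before the start, and in Wdr5, outside the peak, against 6.34% of windows. The NFY letters CCAAT and the CRE/ATF letters TGACG were in Dpy30 alone, in 1 and 3 of its windows (37.4% and 20.8% of all windows). The TCF/LEF core CTTTGA, which is part of the longer motif above, was in Kmt2d alone (16.0%). The T-box letters GGTGTGA (3.98%), the ETS letters CCGGAAG (8.86%), the NRF1 letters GCATGCG (3.57%) and the E-box CACGTG (7.15%) were in none of these windows. The Rbbp5 window held no match to any of the 10.

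Other genes of H3K4 methylation were looked up in the same way. Of 12 further subunits of these complexes, 8 had a Pygo2 peak within 50 kb, and at all 8 it lay inside the gene or within 1 kb of it (46.5% and 22.9% of all genes). They were Cxxc1 (0.104 kb) and Wdr82 (inside), which belong to the SETD1 complexes, Hcfc1 (0.343 kb) and Hcfc2 (inside), Men1 (37 bp), Psip1 (inside), and Pagr1a (4 bp) and Ncoa6 (0.405 kb), which belong to the Kmt2c and Kmt2d complexes. Men1, which encodes the menin partner of Kmt2a and Kmt2b, also had a β-catenin peak 74 bp from the gene, and a shared peak in the window. It was the only 1 of the 12 with a β-catenin peak within 50 kb. Kdm6a and Paxip1, also subunits of the Kmt2c and Kmt2d complexes, lay 2408 kb and 1404 kb from their nearest Pygo2 peak, Bod1 lay 278 kb and Bod1l 79.1 kb from theirs.

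Enzymes that remove the mark and proteins that read it were looked up next, beside the same shares of all genes: 46.5% with a Pygo2 peak within 50 kb, 22.9% within 1 kb and 11.2% with a β-catenin peak within 50 kb. Of 5 H3K4 demethylase genes 4 had a Pygo2 peak within 50 kb, and of these only Kdm5a had one inside or within 1 kb, and none had a β-catenin peak. Of 16 reader genes 10 had a Pygo2 peak within 50 kb and 6 within 1 kb: Pygo2 itself and Ing1 (inside), Ing4 (0.142 kb), Ing5 (31 bp), Phf13 (0.202 kb) and Phf23 (0.120 kb). A β-catenin peak lay near 3 readers, inside Phf8, 0.246 kb from Phf23 and 32.9 kb from Pygo1, and at Phf23 and Pygo1 a shared peak was in the window. Of β-catenin and its adaptors, Bcl9 and Bcl9l had Pygo2 peaks inside the gene, and Ctnnb1 had a β-catenin peak inside and no Pygo2 peak within 152 kb. The difference between these lists was not tested.

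**Figure D4:**
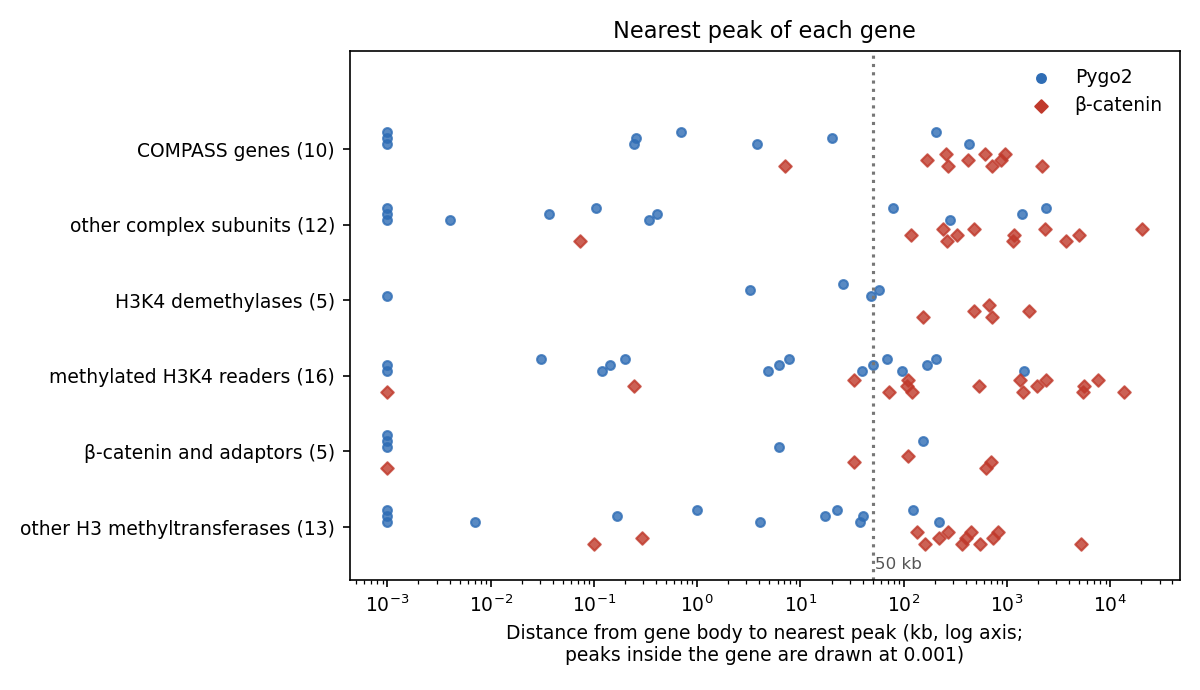
Each point is a gene of the list named on the y axis, placed by the distance in kb (log axis) from the gene to its nearest Pygo2 peak (blue circles) or β-catenin peak (red diamonds), with peaks inside a gene drawn at 0.001. Of the COMPASS genes 8 of 10 blue circles and 1 of 10 red diamonds lie left of the dotted line at 50 kb.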

How the data were processed

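The data are the peak lists of 2 libraries, b-cat BA2 and Pygo2 BA2. Per the file headers the authors called them with HOMER findPeaks (factor style) against the IgG BA1 library, 1 library per list, at a false discovery rate of 0.001, at least 2-fold over control and over the surrounding 10 kb, with a Poisson p-value of 1e-04 for each. Bowtie, Bowtie2, HOMER and mm10 are named, without versions, in the submitters' processing notes. The deposited score is 1 for every peak and was not used as a strength. Coordinates are 1-based. Genes and promoter windows came from RefSeq tables of GRCm38.p6, the same assembly; all 10 symbols matched, and 7 had a promoter window. Distances run from the peak centre to the gene body (0 inside). Where no strand is named, a gene end is either boundary of the gene body. Peaks sharing 1 bp or more were called shared. Counts were set beside those over 21887 protein-coding genes. Alternatives changed the window, the overlap, the list length and the assignment of peaks. The distance and overlap code was tested on simulated data. All 10 genes, the nearest other gene of each peak, and genes of the other lists with a peak within 1 kb or a shared peak were named. The genes, lists and rules were chosen with earlier results of these data known. Python 3.11.15, NumPy 2.4.6, pandas 2.3.3 and Matplotlib 3.10.9 were used.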

Additional observations from a re-analysis of the deposited data

How the results depend on the processing

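The count of 8 genes with a Pygo2 peak stayed within 1.5 times under windows of 1, 5 and 100 kb (6, 7 and 8 genes), with the first 50% of the list, from the peak edge and without peaks at gene ends (8, 8 and 7 genes). It was 5 with nearest genes only and 3 of 7 at start sites. The shares of all genes for the windows, nearest genes and start sites are given above. No such share is given for the shortened list, the peak edge or the removal of gene ends. Those counts therefore have no background here. The single gene with a β-catenin peak became 0 at 1 kb, at 5 kb, with the first 50% of the list, with nearest genes only, at start sites (of 7 genes) and without peaks at gene ends. The 2 overlapping peaks near members became 0 when 50% of the shorter peak had to overlap, and remained 2 for centres within 500 bp. The single gene with a shared peak became 0 at 5 kb. The smaller windows and shorter list hold fewer peaks by construction. The 100 kb window and the peak edge only add peaks to those of the main setting. With 10 genes, the Pygo2 count of 8 was bound to stay from 8 to 10 under both. That range lies within 1.5 times, so these settings do not check the stability of this count. No paired analysis was possible because each list comes from 1 library and no test was run. Depth limits the lists to positions with at least 11 or 10 tags.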

Other observations

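Genes for methyltransferases of other histone H3 sites were looked up beside the H3K4 enzymes. Of 13 such genes 11 had a Pygo2 peak within 50 kb, and 5 had one inside or within 1 kb: Nsd1, Nsd3 and Ehmt1 (inside), Ezh2 (7 bp) and Dot1l (0.168 kb). Over all protein-coding genes these shares were 46.5% and 22.9%. Nsd1 and Nsd3 encode H3K36 methyltransferases, Ehmt1 an H3K9 and Ezh2 an H3K27 methyltransferase, and Dot1l the H3K79 methyltransferase. Ezh2 and Dot1l also had a β-catenin peak, at 0.289 kb and 0.101 kb, and only Dot1l had a shared peak in the window. A β-catenin peak within 1 kb was found for 3.61% of all genes. For the H3K4 genes the count was 8 of 10 within 50 kb and 6 of 10 inside or within 1 kb. The lists were not tested against each other.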
